A study of Homo sapiens with 4 samples.

Results

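The circadian clock genes are the 10 genes CLOCK, ARNTL, PER1, PER2, PER3, CRY1, CRY2, NR1D1, NR1D2 and DBP, chosen by name as the core activators, repressors and an output of the clock. All 10 were present among the 58243 genes of each table, and all 10 passed the filter on low counts that left 14759 genes for testing. They were measured by RNA sequencing in the cell line SH-SY5Y, which derives from a human neuroblastoma and serves as a stand-in for neurons. The control group comprised 2 libraries (a and b) of cells given no agent. The other group comprised 2 libraries (a and b) of cells exposed for 8 h to the nitric oxide donor sodium nitroprusside (SNP), and the labels call this the oxidized state. All cultures grew in medium with 10% fetal bovine serum. The treatment protocol speaks of cells differentiated with retinoic acid and of several SNP doses, without saying which dose was sequenced. Nothing in the labels says that libraries a and b came from separate cultures, so the p-values below measure the spread between these libraries, which may be technical. No label gives an hour of day or a step that synchronizes cells, and each group was sampled at a single time, so levels were measured here and rhythms were not.

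The clock is a feedback loop of transcription found in most cells, neurons included. The proteins of CLOCK and ARNTL (also called BMAL1) pair on E-box elements and switch on the period (PER) and cryptochrome (CRY) genes, whose proteins return to the nucleus and block that pair. In a second loop the nuclear receptors of NR1D1 and NR1D2 (REV-ERB alpha and beta) repress ARNTL through ROR response elements, and the ROR receptors activate it through the same elements. DBP is a clock-driven transcription factor that binds D-box elements.

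The elements through which these genes are known to act on one another were sought, together with the cyclic AMP response element. The search covered the RefSeq promoter windows (GRCh38.p14) of the members, which run from 250 bases before to 50 after an annotated start. Windows were matched for all 10 genes, 15 windows in total, with ARNTL listed there as BMAL1. Both strands were searched for the E-box CACGTG, its variant CACGTT, the D-box TTANGTAA, the cyclic AMP response element TGACGTCA and the ROR response element, and no match overlapped another. The E-box was found in PER1 and NR1D2, and 7.26% of all 35116 windows of that length hold it. The variant CACGTT was found in 5 members (CLOCK, PER2, CRY1, CRY2 and NR1D1), against 5.34% of all windows. A D-box was found in PER2, PER3 and NR1D2 (2.18% of all windows), and a ROR response element in CLOCK, ARNTL and NR1D2 (0.316% of all windows). The cyclic AMP response element was in none of the members' windows (1.85% of all windows), and no searched element was in that of DBP. A match describes letters only, and genes with several windows had more letters searched. Elements outside these windows or spelled otherwise were not sought, so a missing match does not mean that the gene lacks the element.

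The stretches that follow are those of the 3 members called lower after SNP (PER1, NR1D1 and ARNTL). The paralogs NR1D2 and PER3, which did not pass the test, are given beside them. With the offsets on base composition described below, NR1D1 did not pass and NR1D2 did. All stretches are given 5′ to 3′ on the strand of the gene, outside annotated exons except for the short ARNTL element. Capitals mark matches to a searched element.
PER1, chr17:8152436-8152654, minus strand, E-box in capitals: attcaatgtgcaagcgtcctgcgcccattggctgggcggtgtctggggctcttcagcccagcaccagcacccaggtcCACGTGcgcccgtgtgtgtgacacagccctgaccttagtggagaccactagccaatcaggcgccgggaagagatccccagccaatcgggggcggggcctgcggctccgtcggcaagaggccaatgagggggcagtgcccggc
NR1D1, chr17:40100726-40100839, minus strand, with the E-box variant read on the opposite strand: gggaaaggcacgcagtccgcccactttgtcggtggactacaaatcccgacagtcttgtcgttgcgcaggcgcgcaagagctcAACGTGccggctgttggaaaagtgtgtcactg
NR1D2, chr3:23945871-23946120, plus strand, with a D-box and a ROR response element read on the opposite strand and 2 E-boxes: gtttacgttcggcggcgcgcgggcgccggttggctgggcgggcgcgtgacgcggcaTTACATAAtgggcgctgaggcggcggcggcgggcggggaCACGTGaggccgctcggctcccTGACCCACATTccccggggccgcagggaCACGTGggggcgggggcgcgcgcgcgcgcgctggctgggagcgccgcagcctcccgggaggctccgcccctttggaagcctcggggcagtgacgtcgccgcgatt
PER3, chr1:7784041-7784290, plus strand, D-box in capitals: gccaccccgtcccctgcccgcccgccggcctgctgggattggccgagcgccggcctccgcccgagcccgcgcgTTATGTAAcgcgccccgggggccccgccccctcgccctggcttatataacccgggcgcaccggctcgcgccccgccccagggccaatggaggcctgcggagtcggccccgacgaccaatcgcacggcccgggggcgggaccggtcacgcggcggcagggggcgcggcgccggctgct
ARNTL, chr11:13277808-13277834, plus strand, ROR response element in capitals: gaaggcagAAAGTAGGTCAgggacgga
With the base before the start as -1, the PER1 E-box lies at -173 to -168, the NR1D1 variant at -168 to -163 and the NR1D2 E-boxes at -155 to -150 and -105 to -100. The ARNTL element lies after the start, at bases 27 to 37.

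The summed gene counts per library lay between 5613144 and 8056550, so that 3 counts, taken as the floor, correspond to 0.372 to 0.534 CPM (counts per 1000000 counts of a library, for genes after TMM scaling); this floor covers counting error only. Of the 10 adrenergic neuroblastoma markers examined, 9 had over 10 counts in every library, while TH was listed at 0 in all 4. Their summed level was 2768 and 2880 CPM in control and 2275 and 2416 CPM in SNP libraries, but the markers went different ways. DBH had 4053 and 4064 counts in control against 1750 and 2298 in SNP libraries, whereas HAND2 had 3445 and 2970 against 5423 and 5572 and CHGA 348 and 296 against 864 and 698. PHOX2A lay on the side of DBH and CHGB on that of HAND2, also relative to the library totals. Schwann or glial markers summed to at most 2.45 CPM with SOX10 and CDH19 at 0, and immune markers to at most 1.31 CPM with PTPRC and CD3E at 0. Mesenchymal neuroblastoma markers (3 of 5 over 10 counts in every library) summed to 233 and 269 CPM in control and 170 and 173 CPM in SNP libraries. Fibroblast markers (1 of 5, COL3A1) summed to 48.3 and 39.2 CPM in control and 62.8 and 64.7 CPM in SNP libraries. The part of these differences in the results below was not tested.

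In SNP libraries 3 of the 10 clock genes were lower (PER1, ARNTL and NR1D1) and 0 were higher. A gene was called where edgeR's quasi-likelihood test, fitted on the whole table, gave a Benjamini-Hochberg adjusted p-value under 0.05. Of all genes tested 26.2% were called, 12.6% lower and 13.6% higher, so the share of members called was near the background and all the calls lay on the lower side. At an unadjusted p-value under 0.05 the same test gave 4 members lower and 0 higher. The share over all genes at that threshold was not computed. It is at least the 26.2% called after adjustment, because the adjustment never lowers a p-value. DESeq2's Wald test and limma-voom, with adjustment, gave 2 and 3 members lower and likewise 0 higher. Of all 14759 genes tested, DESeq2 called 2415 (1143 lower) and limma-voom 3837 (1877 lower). In CPM both SNP values lay below both control values in 7 members, and in no member above them. Among all genes tested 64.0% had groups that did not overlap in CPM, 32.3% lower and 31.7% higher after SNP. The count of members depends on the scale. On the deposited TPM scale CLOCK was higher in both SNP libraries (79.42 and 86.06 TPM) than in both controls (76.85 and 79.36 TPM). NR1D2 overlapped there, at 136.06 and 121.12 TPM in control and 123.68 and 121.16 TPM in SNP libraries. The median log2 fold change of the members was -0.25, beside -0.0042 over all genes tested. Fewer cells that express a gene and less of its RNA per cell cannot be told apart in these bulk libraries.

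**Figure D1:**
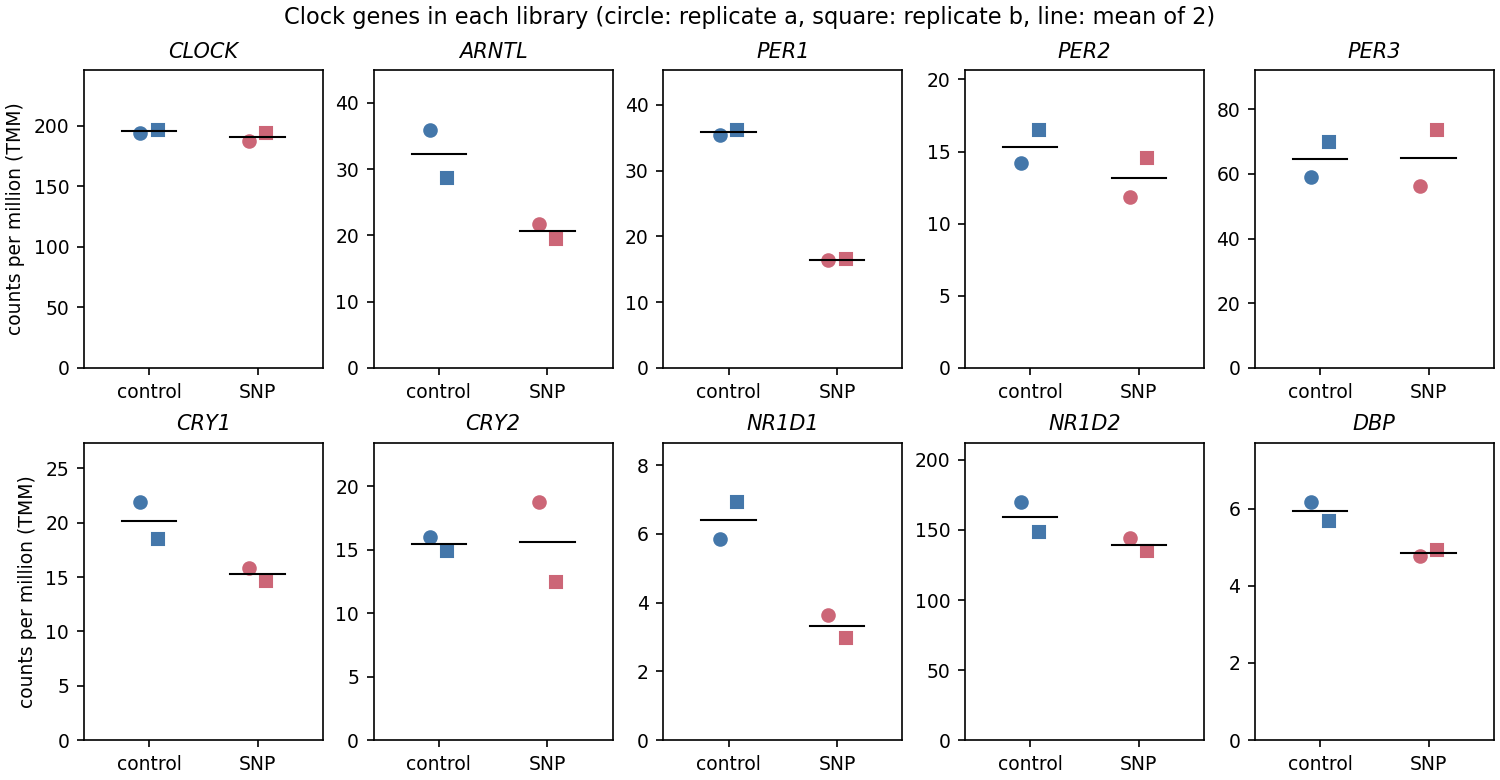
Normalised level of each clock gene (y axis, CPM after TMM scaling, from 0) in the 2 control and 2 SNP libraries, with circles for replicate a, squares for replicate b and a line at the mean of 2. Each gene has its own y axis; relative to their control level PER1, NR1D1 and ARNTL have the widest gaps between groups, while PER2, PER3 and CRY2 overlap between groups.

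Among the activators, ARNTL fell and CLOCK did not pass the test. ARNTL (ENSG00000133794; chromosome 11, 13276652 to 13387266, plus strand; this and later gene positions are those of GENCODE 29 on GRCh38) encodes the partner that CLOCK needs to bind DNA. Control a held 233 of its reads, control b 161, SNP a 173 and SNP b 150, or 35.9, 28.6, 21.8 and 19.4 CPM in that order. Both SNP libraries lay below both controls, and the controls were further apart than the SNP libraries. The control mean was 32.3 ± 5.2 CPM and the SNP mean 20.6 ± 1.65 CPM (SD over 2 libraries). ARNTL thus had a log2 fold change of -0.65 (SE 0.170, 95% interval -1.0 to -0.30) with an adjusted p-value of 0.0073 (edgeR quasi-likelihood, Benjamini-Hochberg). Control a bore on this call: with that library left out, edgeR's test gave a log2 fold change of -0.48 and an adjusted p of 0.163. The exons of ARNTL overlap no exon of another gene.

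CLOCK (ENSG00000134852; chromosome 4, 55427903 to 55547138, minus strand) was counted 1258 and 1107 times in control a and b and 1486 and 1493 times in SNP a and b. These counts are 194 and 197 CPM in control against 187 and 194 CPM in SNP libraries, within a narrow band in all 4. The log2 fold change was -0.037, and its 95% interval of -0.24 to 0.16 leaves room for a small change in either direction (adjusted p = 0.820, edgeR quasi-likelihood, Benjamini-Hochberg). The 76 exonic bases that CLOCK shares with TMEM165 are few among its 11762.
Per length, on the deposited TPM scale, CLOCK stood above ARNTL by 3.09-fold and 3.93-fold in control a and b and by 4.91-fold and 5.69-fold in SNP a and b. This ratio was higher in both SNP libraries than in both controls. An exact two-sided permutation test over the 4 libraries gave p = 0.333, the smallest value that 2 against 2 allows, and 0.333 after adjustment over the 4 such ratios and shares computed.

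Of the period genes, PER1 fell while PER2 and PER3 did not pass the test. PER1 (ENSG00000179094; chromosome 17, 8140472 to 8156506, minus strand) encodes a repressor of the CLOCK and ARNTL pair. It had 230 and 204 counts in control a and b and 130 and 128 counts in SNP a and b, although the SNP libraries held more counts in all. The levels were 35.5 and 36.2 CPM in control against 16.4 and 16.6 CPM in SNP libraries. Replicates lay within 1 CPM of each other and the groups were far apart, with means of 35.8 ± 0.529 and 16.5 ± 0.164 CPM (SD, n = 2 each). The level in SNP libraries was 0.460 of that in control (95% interval 0.364 to 0.582). This is a log2 fold change of -1.12 (SE 0.163; adjusted p = 4.2e-05, edgeR quasi-likelihood, Benjamini-Hochberg). Only 1.61% of the genes tested had a log2 fold change at or below it. It passed in all 16 alternatives, in which its log2 fold change ranged from -1.14 to -0.71 and its adjusted p-value from 1.6e-06 to 0.0064.

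PER2 (ENSG00000132326; chromosome 2, 238244038 to 238290102, minus strand), a paralog with the same role, was weakly counted, with 92, 93, 94 and 112 counts in control a, control b, SNP a and SNP b. Its levels of 14.2 and 16.5 CPM in control and 11.8 and 14.5 CPM in SNP libraries overlapped. Its log2 fold change was -0.22, with a 95% interval of -0.65 to 0.22 (adjusted p = 0.482, edgeR quasi-likelihood, Benjamini-Hochberg).
PER3 (ENSG00000049246; chromosome 1, 7784320 to 7845177, plus strand), the third paralog, was counted 383 and 394 times in control a and b, and 448 and 568 times after SNP. In CPM the controls were at 59.1 and 70.0 and the SNP libraries at 56.4 and 73.6, so the groups overlapped entirely. The log2 fold change was 0.013, with a 95% interval of -0.27 to 0.30 (adjusted p = 0.956, edgeR quasi-likelihood, Benjamini-Hochberg). PER3 shares 868 exonic bases with UTS2, which had 0, 0, 1 and 0 counts in the 4 libraries.

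Set side by side per length, PER3 was the main period transcript. Its share of the summed TPM of the PER genes was 55.0 ± 1.90% in controls and 67.9 ± 2.58% after SNP (SD, n = 2 each). PER1 made up 32.9% and 29.8% in control a and b and 19.6% and 16.0% in SNP a and b, lower in both SNP libraries. The exact permutation p for the PER1 share was 0.333, the smallest that test can give for 2 against 2, and 0.333 after adjustment. PER2 stayed between 13.4% and 14.4% in the 4 libraries.

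Neither cryptochrome gene passed the test. CRY1 (ENSG00000008405; chromosome 12, 106991364 to 107093829, minus strand), the repressor that closes the loop with the period proteins, gave 142 counts in control a and 104 in control b, then 126 and 113 in the SNP libraries. Its levels were 21.9 and 18.5 CPM in control and 15.9 and 14.7 CPM in SNP libraries, with both SNP values below both controls. The log2 fold change of -0.41 (95% interval -0.80 to -0.013) had an adjusted p-value of 0.120 in edgeR's test with Benjamini-Hochberg adjustment. Offsets on gene length and GC content gave 4248 calls among all 14759 genes tested, 2211 of them lower. With them the log2 fold change of CRY1 was -0.52 and passed, at an adjusted p-value of 0.0326 in edgeR's test. It passed in 2 of 16 alternatives, those offsets with and without the replicate block. With guanine minus cytosine content added it was -0.41 and did not pass (adjusted p = 0.1005, edgeR), and the 4 fits that left out a library gave adjusted p-values of 0.13 to 0.534 (edgeR).
CRY2 (ENSG00000121671; chromosome 11, 45847118 to 45883248, plus strand), its paralog, yielded 104 counts from control a, 84 from control b, 149 from SNP a and 96 from SNP b. The SNP replicates, at 18.8 CPM in a and 12.4 CPM in b, lay on either side of the controls, at 16.0 and 14.9 CPM. Its log2 fold change of 0.012 therefore hides a wide spread, with a 95% interval of -0.44 to 0.46 (adjusted p = 0.976, edgeR quasi-likelihood, Benjamini-Hochberg). It was -0.32 without SNP a and 0.28 without SNP b. The share of CRY1 in the summed TPM of both genes was 61.4 ± 1.64% in controls and 55.0 ± 5.78% after SNP (SD, n = 2 each; exact permutation p = 0.333, the smallest possible, and 0.333 adjusted).

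The nuclear receptors of the second loop differed greatly in abundance. NR1D1 (ENSG00000126368; chromosome 17, 40092787 to 40100725, minus strand), which encodes REV-ERB alpha, was sparsely counted, 38 and 39 times in control a and b and 29 and 23 times after SNP. Its levels were 5.86 and 6.92 CPM in control and 3.65 and 2.98 CPM in SNP libraries, and the groups did not overlap. The log2 fold change was -0.94 (SE 0.343, 95% interval -1.65 to -0.23), with an adjusted p-value of 0.0476 in edgeR's test with Benjamini-Hochberg adjustment, close to the threshold. The call was lost in 11 of the 15 alternatives in which the gene was tested, among them each of the 4 that left out a library (log2 fold change -1.09 to -0.80, adjusted p-value 0.082 to 0.22) and DESeq2's Wald test (-0.94, adjusted p = 0.191). NR1D1 shares 263 of its 2772 exonic bases with THRA on the opposite strand, which had 225, 163, 209 and 204 counts in the 4 libraries. The use of strand in counting is not given in the sources used here, so the division of reads between them is uncertain.
NR1D2 (ENSG00000174738; chromosome 3, 23945260 to 23980618, plus strand), which encodes REV-ERB beta, was counted 1102 and 836 times in the controls, and 1145 and 1040 times after SNP. In CPM these were 170 and 148 in control against 144 and 135 in SNP libraries, both SNP values below both controls by a small margin. The log2 fold change of -0.19 (95% interval -0.41 to 0.028) did not pass, with an adjusted p-value of 0.194 (edgeR quasi-likelihood, Benjamini-Hochberg). Per length, NR1D2 exceeded NR1D1 on the TPM scale by 12.0 ± 2.55-fold in controls and by 20.2 ± 1.93-fold after SNP (SD, n = 2 each). NR1D1 made up 6.75% and 8.92% of the summed TPM of both genes in control a and b and 5.05% and 4.44% in SNP a and b (exact permutation p = 0.333, the smallest possible, and 0.333 adjusted).

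The output gene DBP (ENSG00000105516; chromosome 19, 48630030 to 48637438, minus strand), the member lowest per length, gave 40 counts in control a, 32 in control b and 38 in each SNP library. Scaled for depth these were 6.17 and 5.68 CPM in control and 4.78 and 4.93 CPM in SNP libraries, lower in both. The log2 fold change of -0.29 did not pass, and its 95% interval of -0.95 to 0.37 was wide at this depth (adjusted p = 0.544, edgeR quasi-likelihood, Benjamini-Hochberg). DBP shares 661 of 6544 exonic bases with SPHK2 on the opposite strand, which had 142, 114, 100 and 155 counts in the 4 libraries, so part of its few counts may belong to either gene.

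**Figure D2:**
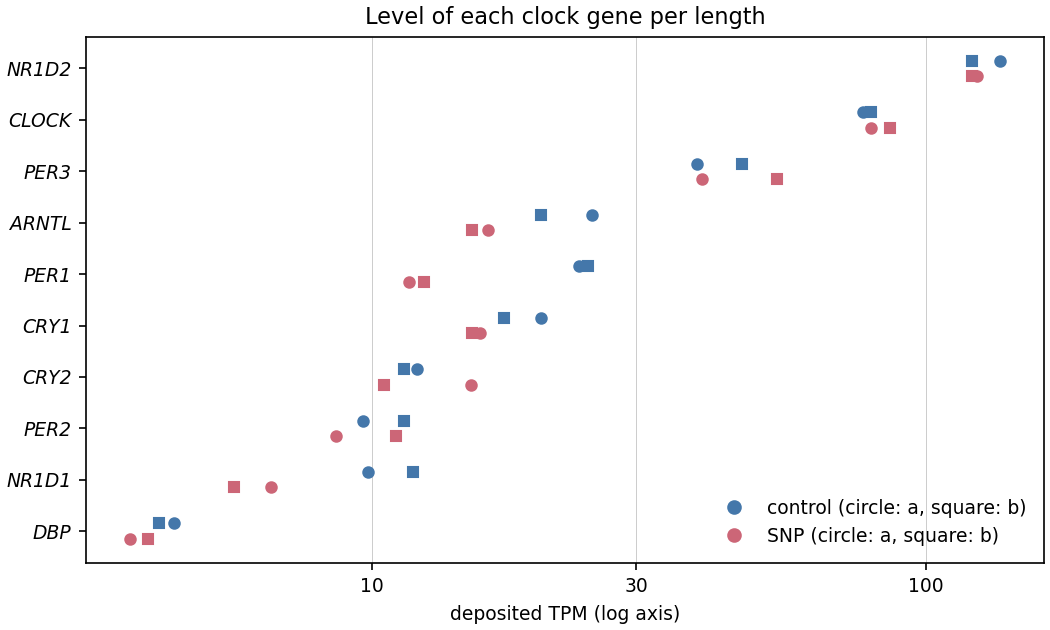
Deposited TPM of each clock gene (x axis, log scale), with control libraries in blue and SNP libraries in red, circles for replicate a and squares for replicate b, ordered by the mean of the 4 libraries. NR1D2, CLOCK and PER3 lead the order and DBP closes it.

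By level per length over the 4 libraries, NR1D2 came first at 121 to 136 TPM, then CLOCK at 76.9 to 86.1 TPM and PER3 at 38.5 to 53.9 TPM, with no overlap between these neighbours. ARNTL (15.1 to 24.9 TPM), PER1 (11.7 to 24.6 TPM) and CRY1 (15.1 to 20.2 TPM) overlapped over all libraries, and the place of PER1 among them differed between groups. In both controls PER1 (23.6 and 24.6 TPM) lay above CRY1 (20.2 and 17.3 TPM). In both SNP libraries PER1 (11.7 and 12.4 TPM) lay below CRY1 (15.6 and 15.1 TPM) and ARNTL (16.2 and 15.1 TPM), and within the range of CRY2 (15.1 and 10.5 TPM). CRY2 (10.5 to 15.1 TPM), PER2 (8.59 to 11.4 TPM) and NR1D1 (5.63 to 11.9 TPM) likewise overlapped over all libraries. After SNP, NR1D1 (6.58 and 5.63 TPM) lay below PER2 (8.59 and 11.04 TPM) and CRY2 in both libraries. DBP lay lowest at 3.65 to 4.39 TPM. Its place depends on the length used, 6544 exonic bases for DBP and 2772 for NR1D1. In CPM DBP (4.78 and 4.93) lay above NR1D1 (3.65 and 2.98) in both SNP libraries. In controls DBP (6.17 and 5.68 CPM) and NR1D1 (5.86 and 6.92 CPM) overlapped. Of the 9 pairs of neighbours in the order by the mean of all 4 libraries, 4 overlapped; these orders are descriptions.

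The members that fell differed in the base composition of their transcripts, a property that moved with the log2 fold change across all genes. Guanine minus cytosine content, in percent of transcript bases, correlated with it at a Spearman rho of 0.481 across 14724 genes of the same 4 libraries, given as a description because genes are no replicates. With genes sorted by this content into 10 equal groups, the median log2 fold change was -0.43 in the group poorest in guanine relative to cytosine and 0.39 in the richest. NR1D1 (-10.03 percentage points) and PER1 (-5.94) lay in the poorest group, at percentiles 0.319 and 2.08 of this content, and both had log2 fold changes below that group's median. ARNTL (1.15 percentage points) lay in the sixth group, whose median was 0.0079, and NR1D2 (3.09) in the ninth, whose median was 0.24. The remaining 6 members lay between -1.34 and 0.85 percentage points.

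With offsets on gene length, GC content and guanine minus cytosine content, 3 members were called, all lower (ARNTL, PER1 and NR1D2). Of all 14759 genes tested, 2758 were called with these offsets, 1524 lower and 1234 higher. The offsets were fitted on these same 4 libraries. They take out a trend with composition whether it is technical or came with SNP, and which it is was not tested. ARNTL was little moved by these offsets, at -0.67 (adjusted p = 0.0077, edgeR quasi-likelihood, Benjamini-Hochberg). PER1 still passed, with a log2 fold change of -0.71 and an adjusted p-value of 0.0050 in edgeR's test. NR1D1 was at -0.25 and no longer passed (adjusted p = 0.648, edgeR), whereas NR1D2 was at -0.46 and passed (adjusted p = 0.0019, edgeR). NR1D2 also passed with offsets on length and GC content alone, at -0.36 (adjusted p = 0.0051, edgeR). In that fit 4 members were called, all lower (ARNTL, CRY1, NR1D2 and PER1), beside 4248 of all 14759 genes tested, 2211 lower and 2037 higher.

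**Figure D3:**
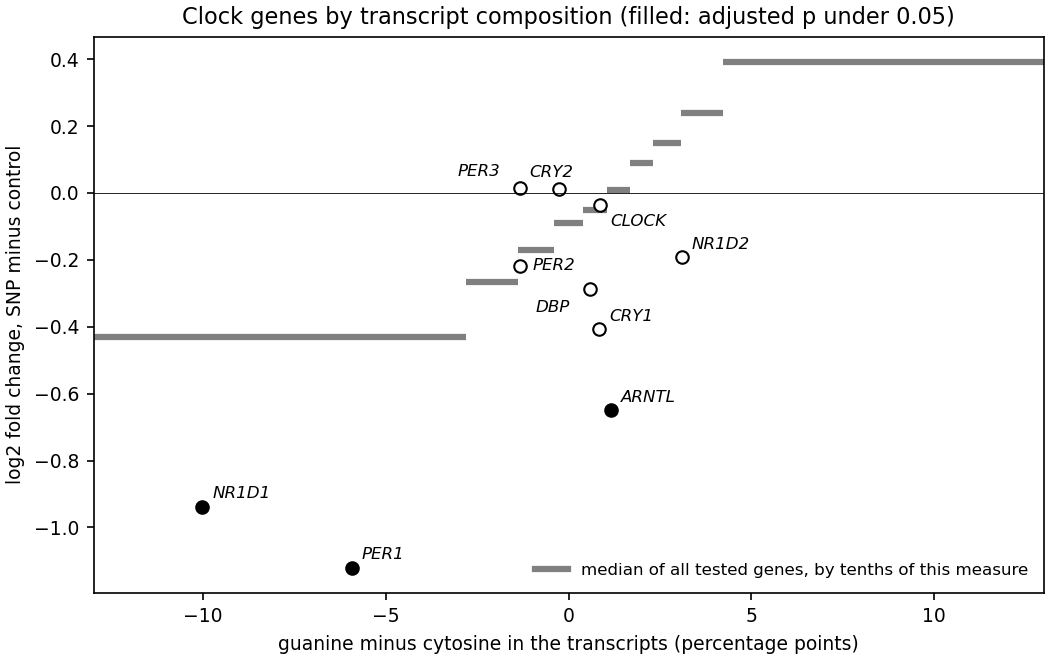
Log2 fold change of each clock gene, SNP minus control (y axis), against guanine minus cytosine content of its transcripts in percentage points (x axis), with filled points for an adjusted p-value under 0.05. Grey bars give the median of all tested genes in each of 10 equal groups, the outermost of which run on past the axis; NR1D1 and PER1 lie at the left, in the group with a median of -0.43, and ARNTL lies near the middle.

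**Figure D4:**
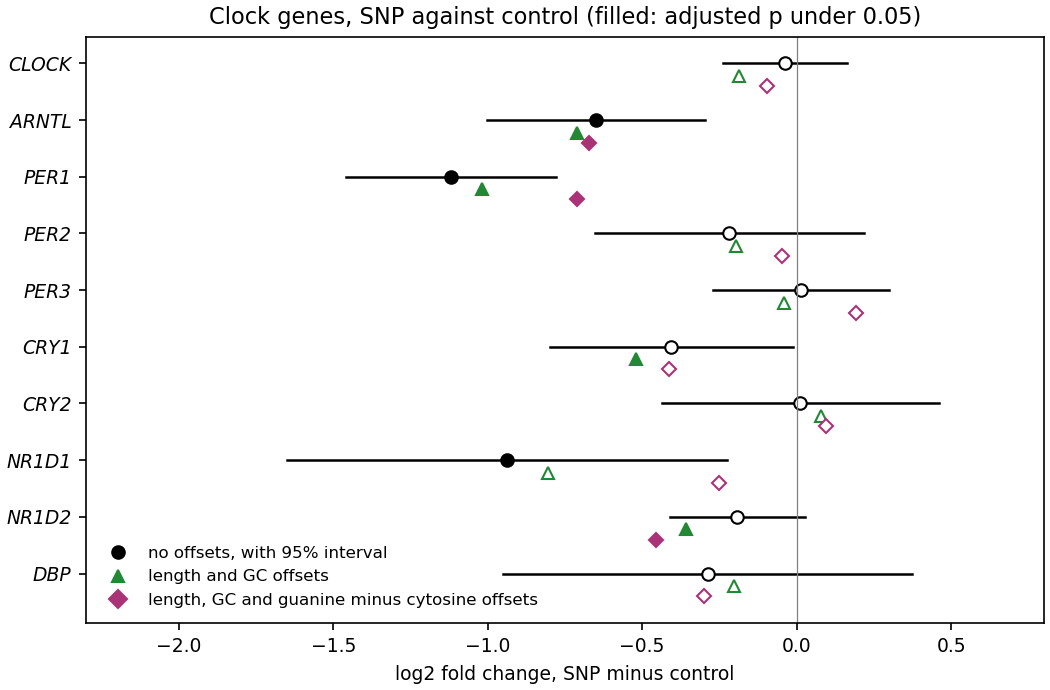
Log2 fold change of each clock gene, SNP minus control (x axis), without offsets (black circles with 95% intervals), with offsets on length and GC content (green triangles) and with offsets that add guanine minus cytosine content (purple diamonds); filled symbols have an adjusted p-value under 0.05. PER1 and ARNTL are filled in each, NR1D1 without offsets alone, CRY1 with offsets on length and GC content alone, and NR1D2 with either set of offsets.

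A list of 33 further genes of the clock was read from the same fit. Of these, 30 were tested and 8 passed, 6 higher and 2 lower in SNP libraries, a share of 26.7% beside 26.2% of all genes tested. Their median log2 fold change was 0.039. BHLHE40, BHLHE41 and PPARGC1A, with at most 18 counts in any library, were not tested.
Of the 3 ROR receptors, which activate ARNTL, RORB fell. RORB (ENSG00000198963), the most strongly counted of them, had 575 and 479 CPM in control a and b and 366 and 384 CPM in SNP a and b. Both SNP libraries lay below both controls, with a log2 fold change of -0.49 (SE 0.0977) and an adjusted p-value of 8.7e-04 (edgeR quasi-likelihood, Benjamini-Hochberg). The activator paralogs NPAS2 and ARNTL2, the 3 tested repressors CIART, NFIL3 and TIMELESS, and the D-box factors TEF and HLF did not pass, although CIART, with a log2 fold change of -0.91, had an unadjusted p-value of 0.025 (adjusted p = 0.0795, edgeR).

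Among the kinases and ubiquitin ligase subunits that act on clock proteins, FBXW11 and CSNK1D rose. FBXW11 (ENSG00000072803), a subunit of ligases that mark period proteins, had 133 and 134 CPM in control and 182 and 163 CPM in SNP libraries, a log2 fold change of 0.36 (SE 0.103; adjusted p = 0.0120, edgeR quasi-likelihood, Benjamini-Hochberg). Both SNP libraries lay above both controls.
Of 8 cofactors, SIRT1, KDM5A and NONO rose and CREBBP fell. SIRT1 (ENSG00000096717), a deacetylase that acts on clock proteins, had 46.6 and 51.1 CPM in control and 81.1 and 63.4 CPM in SNP libraries, a log2 fold change of 0.57 (SE 0.135; adjusted p = 0.0037, edgeR). KDM5A (ENSG00000073614), a histone demethylase that assists the CLOCK and ARNTL pair, had 314 and 298 CPM in control and 411 and 452 CPM in SNP libraries, a log2 fold change of 0.50 (SE 0.0934; adjusted p = 5.1e-04, edgeR). With the guanine minus cytosine offsets 6 of the 30 listed genes tested passed, beside 2758 of all 14759 genes tested. FBXW11, KDM5A and CREBBP were not among the 6. KDM5A was then at 0.14 (adjusted p = 0.236, edgeR). The input factor CREB1 and the clock-controlled genes WEE1 and NAMPT did not pass.

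**Figure D5:**
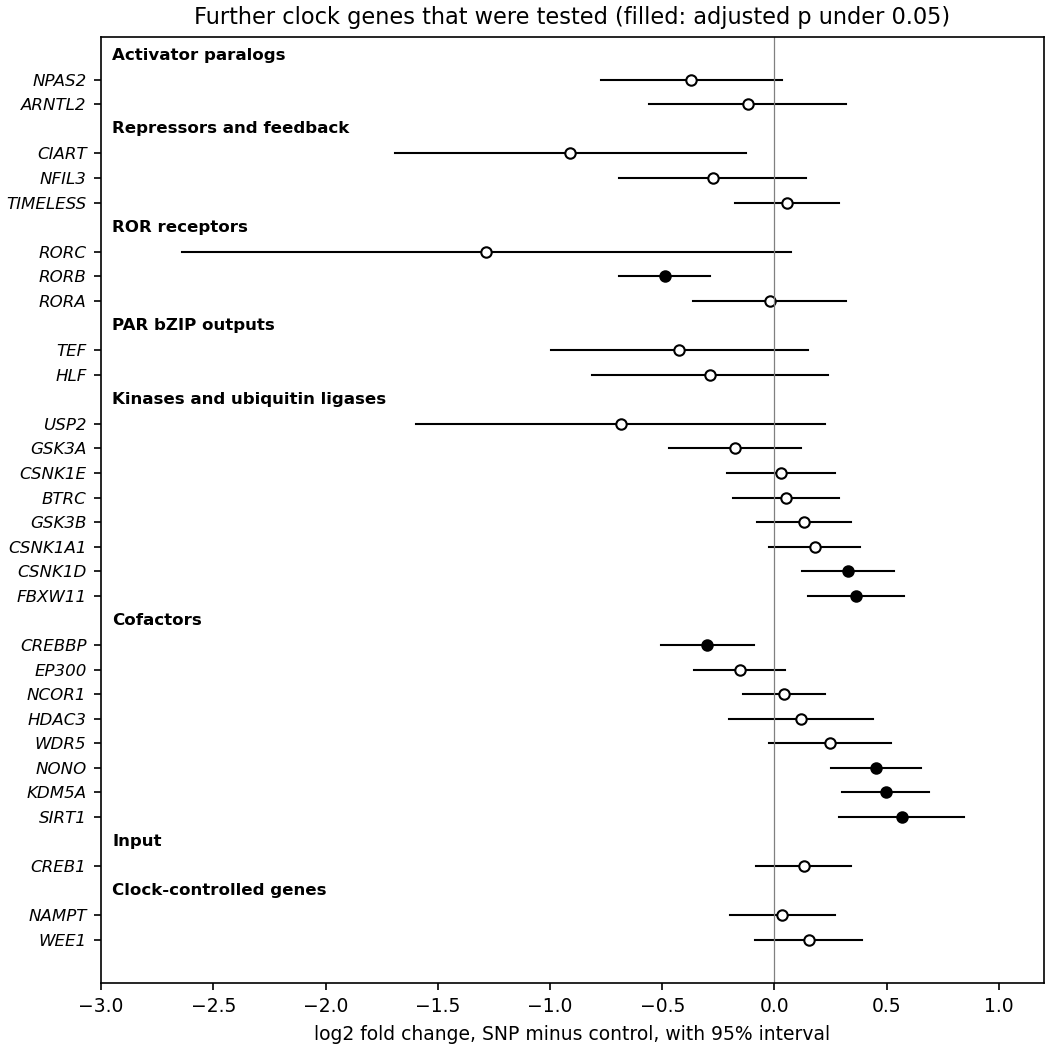
Log2 fold change of further clock genes that were tested, SNP minus control (x axis), with 95% intervals, grouped by role; filled points have an adjusted p-value under 0.05. RORB and CREBBP are the 2 filled points below 0, and CSNK1D, FBXW11, SIRT1, KDM5A and NONO are the filled points above it.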

How the data were processed

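Per the labels, the read length was 75 bp and the target 40 M reads for each SH-SY5Y library. GRCh38 is named in the submitters' processing notes, and aligner and counter are not given in the sources used here. Unnormalized read counts per gene were deposited by the authors as the expression column. The TPM column deposited by the authors sums to 1000000 per library and was used to compare levels between genes. The RPKM column deposited by the authors implies larger read totals, between 48.7 and 62.0 M, used in an alternative.

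Counts were tested with edgeR 4.0.16 (R 4.3.3): filterByExpr (minimum count 10, minimum total 15), TMM, quasi-likelihood test without covariate, Benjamini-Hochberg adjustment over all 14759 genes, threshold 0.05. Standard errors came from the log2 fold change and F statistic. Positions, exonic overlaps on either strand and base composition over all transcripts of a gene came from GENCODE 29, which holds 57980 of the 58243 genes. Offsets were per-library lowess curves (span 0.5, 3 rounds). Alternatives used DESeq2 1.42.0 and limma 3.58.1. Others changed the count filter or the scaling (DESeq2 size factors, total counts only or read totals implied by RPKM). Further ones added offsets or the letters a and b as a replicate block, or left out each library in turn. They are not independent, as DESeq2 size factors kept 99.69% of the calls made with TMM. Part of them are given in the closing section. The tests were also run on simulated counts with the same dispersion for every gene, a simpler setting than these data. The outcome is not given here, and no call above rests on it. The members and gene lists were chosen with earlier results of these data known; all members and, per role, up to 2 further genes with the largest change past the threshold are given with values, except items that are not reported here or drawn. Replicates differed by more than counting noise (chi-square per degree of freedom 2.94 in control and 5.04 in SNP libraries) and each counted as 1 sample.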

Additional observations from a re-analysis of the deposited data

How the results depend on the processing

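The 3861 genes called over all genes became 2415 with DESeq2's Wald test, 2224 at an adjusted p-value under 0.01 and 647 with a required fold of 2 or more in either direction, and 2447 to 4144 when each library was left out in turn. With read totals implied by RPKM 63.1% of calls were higher, against 51.9% with TMM, and the median over all genes was then 0.064 on the log2 scale. The count of 3 clock genes was 1 (PER1) under the same fold requirement, and 1 to 2 when a library was left out, the lowest without control a. The 8 further clock genes became 5 with composition offsets and the replicate block together, 4 at an adjusted p-value under 0.01, 0 under the fold requirement (0 also by edgeR without adjustment, 0 by DESeq2 and limma-voom with adjustment and 1 by limma-voom without it), and 3 to 8 when a library was left out, the lowest again without control a. Sign changes occurred only in members that were never called. CLOCK was at 0.031 with the read totals implied by RPKM. Offsets on length and GC content put PER3 at -0.042, or at -0.052 with the block added, and it ranged from -0.19 to 0.19 when a library was left out. CRY2 was at -0.019 with limma-voom, at -0.00091 with the block, and from -0.32 to 0.28 when a library was left out. The causes were not tested. A filter at a mean of 50 counts left NR1D1 and DBP untested.

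Same-lettered deviations from the group means had a correlation of 0.055 across genes. Counting noise pulls such a value toward 0, so it cannot settle whether the letters a and b pair the libraries. With the letter as a replicate block 4487 genes and the same 3 clock genes (PER1, ARNTL and NR1D1) were called, and no other member changed its call. Counts of 23 to 40 for NR1D1 and DBP limit their precision.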
